A study of Mus musculus with 6 samples.

Results

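The genes described here are 9 transcription factors and chromatin-associated regulators known for their work in blood stem cells: Hlf, Mecom, Prdm16, Meis1, Mllt3, Erg, Fli1, Gata3 and Tcf15. They were taken by gene symbol from the deposited expression tables, with no measured value in the rule. They are 9 of 14455 symbols listed in at least 1 library, and 8 of them were listed in all 4. RNA came from LSK cells, the lineage-negative, Sca-1-positive, Kit-positive fraction of mouse bone marrow that holds stem cells and multipotent progenitors. There was 1 total RNA library from each of 4 groups of C57BL/6 mice: Setd2 KO (old KO) and WT (old WT), both 8 months after pI-pC induction, and Setd2 KO (young KO) and WT (young WT), both 4 weeks after it. Setd2 encodes an H3K36 methyltransferase and was deleted conditionally. pI-pC is a synthetic double-stranded RNA used to switch on interferon-inducible Cre alleles, and the labels date all 4 groups from it, WT included. The Cre line, the deleted part of Setd2 and the number of mice behind a library are not given in the sources used here. With 1 library per group no difference has a replicate check, an SD or a p-value, and each one describes these libraries alone.

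Stem cells stay rare and slowly dividing through a network of such factors that bind enhancers together and regulate one another. Hlf is a PAR bZIP factor that holds stem cells in quiescence. Mecom, whose shorter form is Evi1, and Prdm16 are related zinc finger proteins of the PRDM family that stem cells need for their maintenance. Meis1 is a TALE homeodomain factor that binds DNA with Pbx and Hox proteins. Mllt3, also called AF9, reads acylated histones and recruits the transcription elongation machinery. Erg and Fli1 are ETS factors that occupy shared enhancers with Tal1, Lyl1, Lmo2, Gata2 and Runx1. Gata3 is best known from T cells and type 2 innate lymphoid cells and also takes part in the cycling of stem cells, and Tcf15 is a bHLH factor of quiescent stem cells.

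Of the 9 genes, 7 had promoter windows in the RefSeq table of build GRCm38.p6, 11 windows in all, each with 250 bases before and 50 after a transcription start. The Hlf and Gata3 upstream stretches are shown because Hlf had the largest knockout difference of the members in old cells and Gata3 in young cells. Both are read 5′ to 3′ on the minus strand, with capitals for GGAA, the ETS core bound by Erg and Fli1 (TTCC on the other strand), and, in Hlf, for the cyclic AMP response element TGACGTCA, which reads the same on both strands.
Hlf, chr11:90390918-90391167: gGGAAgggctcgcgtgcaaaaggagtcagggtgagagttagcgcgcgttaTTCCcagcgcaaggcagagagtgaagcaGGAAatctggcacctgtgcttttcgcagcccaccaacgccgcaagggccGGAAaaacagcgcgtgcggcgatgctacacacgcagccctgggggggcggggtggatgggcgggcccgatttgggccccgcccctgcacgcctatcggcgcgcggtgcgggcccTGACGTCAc
Gata3, chr2:9878601-9878850: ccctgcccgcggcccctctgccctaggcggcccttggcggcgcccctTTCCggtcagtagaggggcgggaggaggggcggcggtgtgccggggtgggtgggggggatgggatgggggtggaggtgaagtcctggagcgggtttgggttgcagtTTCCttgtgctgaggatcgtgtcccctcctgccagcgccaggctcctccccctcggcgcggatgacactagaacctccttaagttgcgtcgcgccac
The Hlf stretch held 4 GGAA cores and the Gata3 stretch 2. GGAA lay in all 11 member windows and in 96.0% of all 32851 windows, so its presence is nothing particular to these genes. TGACGTCA, which was looked for after the Hlf window had been seen, began 9 bases before the Hlf start and lay in 1.79% of all windows. GATA, on either strand, lay in 7 of the 11 member windows and in 57.9% of all windows, the E-box CANNTG in 8 and 72.3%, and the Meis site TGACAG in 3 and 19.2%. The PAR bZIP site TTACNTAA lay in 0 of the 11 and in 2.32% of all windows. The windows of the Mecom long form and of Prdm16 share a run of 24 bases, shown because it is the longest identity among the 50 pairs of windows from different members, where the next longest had 14.
Mecom and Prdm16, capitals for the whole run: GCGCATGTGCGAAGGTGTCCAAAC
The run spans bases 27 to 50 of the annotated Mecom transcript and bases 10 to 33 of that of Prdm16. No window of another symbol held it. Base 50 is the last of the Mecom window, so the run may go on beyond it. All of these matches describe letters only, since binding was not measured.

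The libraries listed between 13182 and 13327 genes, each at 0.5 FPKM or more (fragments per kilobase of transcript, scaled to sequencing depth). Levels below are scaled FPKM, with factors that make the median ratio of genes to their own mean over the libraries alike in each library. The same scaling holds the median difference of all genes near 0.00, and so the share of genes above that near an even split. The spacing of low values gave 18.1, 17.9, 9.04 and 9.57 counted units per FPKM and kb of transcript in old KO, old WT, young KO and young WT. Intervals in the text are 95% counting intervals from these units for a transcript taken as 2 kb long. They cover counting error only and not the difference between mice. Of the sorting and progenitor genes, Kit stood between 41.1 and 61.0, Cd34 between 49.5 and 60.5, Flt3 between 38.6 and 64.5 and Ly6a, which encodes Sca-1, between 3.17 and 8.81. Setd2 stood at 15.5 in old KO, 15.3 in old WT, 12.4 in young KO and 14.1 in young WT, a level over the whole gene that does not check the deletion. Immunoglobulin segments held 4.63% of the summed FPKM in old KO, 26.7% in old WT, 0.861% in young KO and 0.617% in young WT. Xist was listed only in the old libraries, at 279 and 291, and the Y-linked Ddx3y, Eif2s3y, Kdm5d and Uty only in the young ones, so age and sex cannot be told apart. In bulk RNA, fewer cells that express a gene and less RNA per cell cannot be told apart either.

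Fli1 was by far the most abundant member in every library, and the others fell into a middle and a low tier. Fli1 (ENSMUSG00000016087, chromosome 9, 32422204 to 32542861, mm10) stood at 58.7 in old KO, 53.0 in old WT, 54.1 in young KO and 49.1 in young WT. Its levels lay at percentiles 95.5 to 96.7 of the genes listed in each library. The middle tier was Hlf, Meis1 and Erg, between 6.21 and 14.7 in all, and their ranges over the libraries overlapped. The low tier was Mllt3, Mecom, Gata3 and Prdm16, between 1.16 and 4.79. Neighbours within the low tier overlapped as well, although Mllt3 lay above Mecom in each of the 4 libraries. Tcf15 (ENSMUSG00000068079, chromosome 2, 152143561 to 152149097) was not listed in old KO and stood at 0.873 in old WT, 0.806 in young KO and 0.702 in young WT. It stayed under a level of 1 throughout, which left 8 members measured in each comparison.

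**Figure D1:**
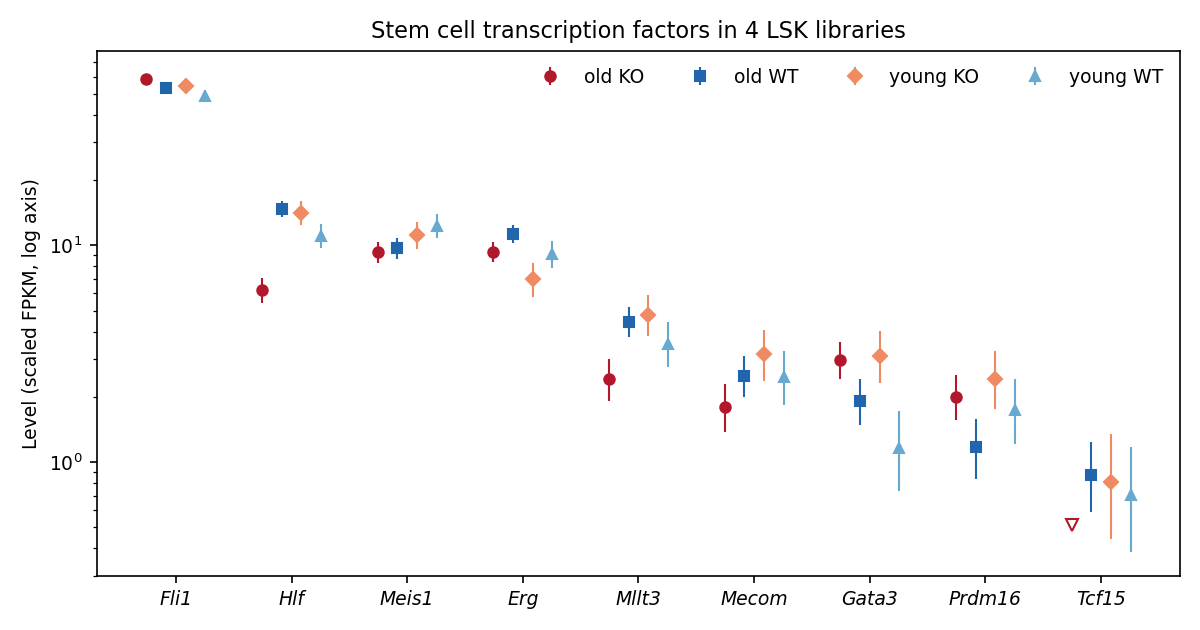
Level of each member (scaled FPKM, log axis) in the old KO, old WT, young KO and young WT libraries, 1 point per library, with 95% counting intervals for a transcript of 2 kb; the open triangle marks Tcf15 in old KO, which was not listed. Fli1 lies above 49 in all libraries, and Hlf at 6.21 in old KO lies below its 3 other values.

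In old cells the question was which stem cell factors differed 8 months after the deletion. Hlf was the one member that differed by 2-fold or more. Hlf (ENSMUSG00000003949, chromosome 11, 90336536 to 90390895) stood at 6.21 in old KO (interval 5.42 to 7.09), against 14.7 in old WT (13.5 to 16.1). The old KO level lay below those of all other libraries, and the ratio of old KO to old WT was 0.422 (0.360 to 0.494). As log2 of scaled FPKM with a pseudocount of 1 added, a scale on which changes of low genes come out too small, the difference was -1.13, at percentile 2.24 of all measured genes. A difference of 1 on this scale is what is called 2-fold here. By that rule 1 of 8 measured members was called, against 4.29% of all 12482 genes in either direction and 2.66% in the lower direction. Of the 8, 3 lay above 0, against 50.3% of all genes, with a median of -0.15 against 0.00 over all genes.

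Mllt3 and Mecom were lower in old KO with Hlf, each by less than 2-fold. Mllt3 (ENSMUSG00000028496, chromosome 4, 87769925 to 88033364) stood at 2.41 in old KO (1.92 to 2.98), against 4.43 in old WT (3.76 to 5.18), a ratio of 0.544 (0.418 to 0.709). Mecom (ENSMUSG00000027684, chromosome 3, 29951296 to 30548008) stood at 1.80 in old KO, against 2.50 in old WT, and its ratio of 0.719 had an interval of 0.521 to 0.993. The 2 intervals for the Mecom levels, 1.38 to 2.30 and 2.00 to 3.08, overlap. The gene-level value sums the long and the Evi1 forms, so which form differed cannot be read from it.

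The other PRDM factor and Gata3 were higher in old KO. Prdm16 (ENSMUSG00000039410, chromosome 4, 154316125 to 154636873) stood at 2.00 in old KO, against 1.17 in old WT, with a ratio of 1.71 (1.17 to 2.52). The old WT value was the lowest of the 4 libraries. Gata3 (ENSMUSG00000015619, chromosome 2, 9857078 to 9890034) stood at 2.97 in old KO, against 1.91 in old WT, with a ratio of 1.55 (1.14 to 2.11). Both genes are low, and their differences were 0.47 and 0.45 on the log2 scale.

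The TALE and ETS members differed little in old cells. Meis1 (ENSMUSG00000020160, chromosome 11, 18879817 to 19018985) stood at 9.31 in old KO and 9.69 in old WT, and the interval of its ratio, 0.825 to 1.12, holds 1. Erg (ENSMUSG00000040732, chromosome 16, 95359169 to 95586593) stood at 9.36 in old KO and 11.3 in old WT, a difference of -0.24. Fli1 was slightly higher in old KO, by 0.14. The intervals depend on the counted units, which were about 2 times as many per FPKM in the old libraries, and it was not settled whether that is depth. With the old units halved, an alternative chosen after seeing the data, the intervals of Erg (-0.52 to 0.03) and Mecom (-0.77 to 0.12) hold 0, and those of Prdm16 and Gata3 begin at 0.01. Those of Hlf (-1.41 to -0.84), Mllt3 (-1.07 to -0.27) and Fli1 (0.02 to 0.27) do not hold 0.

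In young cells, 4 weeks after the deletion, 0 of the 8 members were called at 2-fold, against 1.72% of all 12412 measured genes. Gata3 came nearest, at 3.08 in young KO (2.32 to 4.02), against 1.16 in young WT (0.739 to 1.73). Its ratio was 2.66 (1.64 to 4.31), while on the log2 scale with 1 added the difference was 0.92, at percentile 98.6 of all genes. With a pseudocount of 0.1 in place of 1, Gata3 passed the 2-fold line, and 5.11% of all genes then did. The young WT value stood out as the lowest Gata3 level, below 1.91 in old WT.

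Of the 8 members, 6 lay above 0 in young KO, against 50.5% of all genes, and the median was 0.29 against 0.00. Among the 4 members that reached a level of 5, 2 lay above 0 and the median was 0.01, against 0.01 over all genes at that floor. Hlf stood at 14.1 in young KO (12.4 to 16.0), against 11.1 in young WT (9.69 to 12.6), a ratio of 1.27 (1.06 to 1.52). Mllt3 stood at 4.79 in young KO and 3.52 in young WT, with a ratio of 1.36 (0.995 to 1.87). Mecom stood at 3.14 and Prdm16 at 2.42 in young KO, against 2.46 and 1.74 in young WT, and the intervals of both ratios hold 1. Fli1 was higher by 0.14, as in old cells. Erg was lower, at 6.98 in young KO and 9.12 in young WT, with a ratio of 0.765 (0.609 to 0.960). Meis1 stood at 11.2 in young KO and 12.3 in young WT, within counting error.

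**Figure D2:**
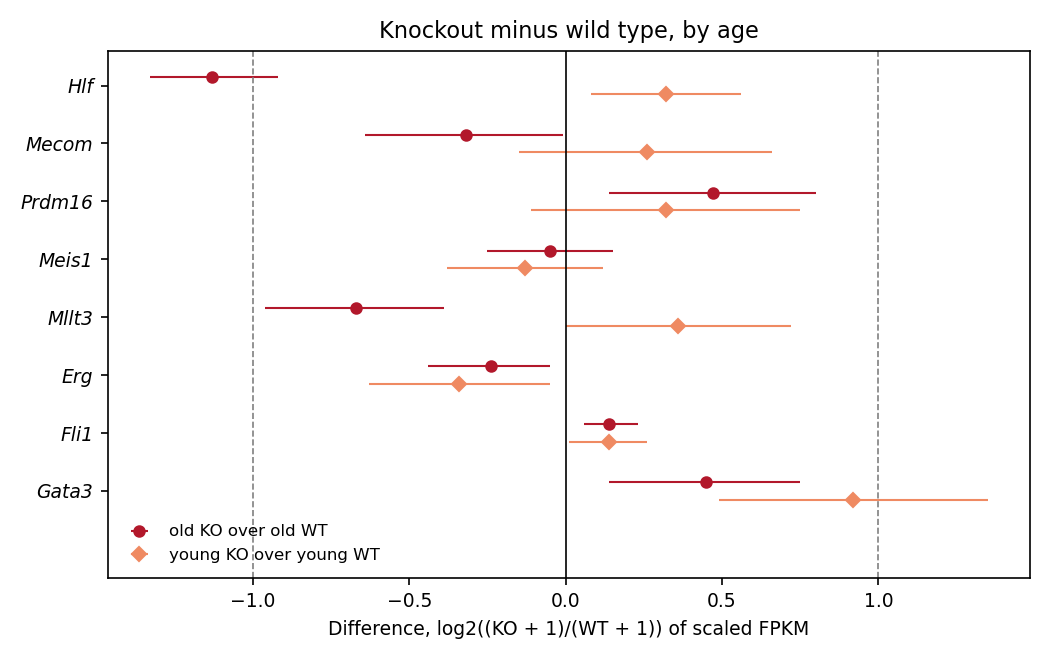
Difference of the 8 measured members between KO and WT, in old cells (circles) and young cells (diamonds), as log2((KO + 1)/(WT + 1)) of scaled FPKM with 95% counting intervals; dashed lines mark 2-fold. Hlf lies at -1.13 in old and 0.32 in young cells, and Gata3 lies above 0 at both ages.

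Set side by side, the knockout differences of old and young cells had opposite signs for Hlf, Mllt3 and Mecom and the same sign for the other 5 measured members. The differences were -1.13 in old and 0.32 in young cells for Hlf, -0.67 and 0.36 for Mllt3, and -0.32 and 0.26 for Mecom. Hlf was the one member of these 3 whose differences exceeded counting error at both ages, narrowly so in young cells, where the half-width was 0.24. Erg was lower in KO at both ages, by -0.24 in old and -0.34 in young cells, and Prdm16 was higher, by 0.47 and 0.32. Whether a knockout difference changes with age was not tested, since no group has a replicate.

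The age comparisons share these libraries and differ in sex as well. In old KO against young KO, Hlf was again the one member called, at a ratio of 0.441 (0.368 to 0.528), where 7.19% of all genes were called. Mllt3 had a ratio of 0.502 (0.372 to 0.678) and Mecom of 0.572 (0.399 to 0.819). In old WT against young WT 0 of 8 members were called, where 5.55% of all genes were. There Hlf was higher, with a ratio of 1.33 (1.14 to 1.55), and Meis1 was lower, with a ratio of 0.788 (0.669 to 0.928). The lowest Hlf and Mllt3 levels were thus those of old KO.

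Predicted genes inside the members' loci gave a further readout, and those inside Mecom were lower in old KO. They are annotated units that lie within the loci by position, 0.867 to 7.36 kb long, 15 of them listed in at least 1 library. Whether they lie in introns was not checked, and reads of the 2 strands may be shared with the host gene. Within Mecom 5 were listed in all libraries, and their levels summed to 13.2 in old KO, 23.2 in old WT, 25.5 in young KO and 26.3 in young WT. All 5 were lower in old KO than in old WT, and the ratio of the sums was 0.570. Gm37652, near the start of the long form, stood at 4.05 in old KO and 7.65 in old WT, and Gm38197 at 2.99 and 6.08. In young cells the ratio of the sums was 0.968. Over the 750 predicted genes that lie within a named gene's locus and were listed in all 4 libraries, the median ratio was 0.933 in old and 1.03 in young cells.

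The units inside Meis1 and Fli1 differed with age more than their host genes did. The 3 inside Meis1 that were listed in all libraries summed to 35.8 in old KO, 30.2 in old WT, 58.7 in young KO and 51.3 in young WT. The 4 inside Fli1 summed to 58.8, 58.7, 85.0 and 81.0 in the same order. The ratios of old WT to young WT were 0.588 and 0.725, while Meis1 itself had a ratio of 0.788 and Fli1 of 1.08. The same ratio had a median of 0.804 over the 750 predicted genes, and that of old KO to young KO 0.695, so lower values in old libraries were common to such units.

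**Figure D3:**
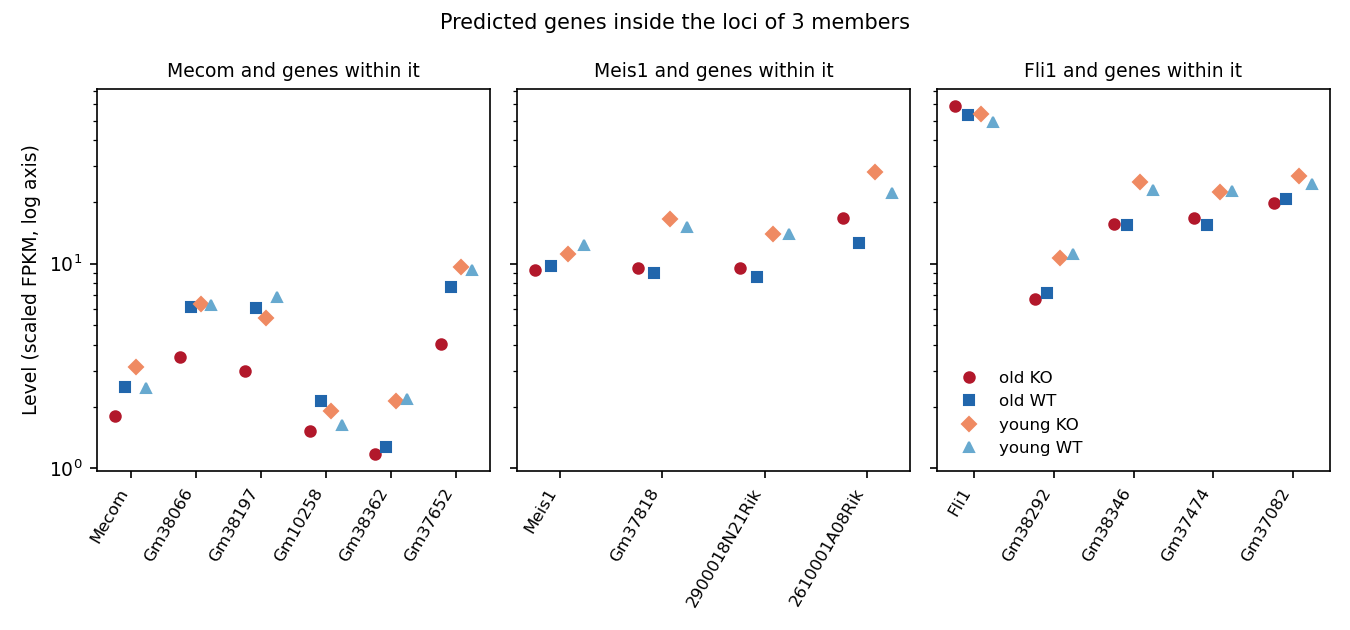
Levels (scaled FPKM, log axis) of Mecom, Meis1 and Fli1 and of the predicted genes within their loci that were listed in all libraries, 1 point per library for old KO, old WT, young KO and young WT. Inside Mecom the old KO points are the lowest for each of the 5 units, and inside Meis1 and Fli1 both old points lie below both young points.

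A list of 9 partners held Tal1, Lyl1, Lmo2, Gata2 and Runx1, which share enhancers with Erg and Fli1. It also held Ldb1, Tcf3, Tcf12 and Cbfb, from complexes of those factors. All 9 were measured and 0 were called at either age, with a median of -0.14 in old and 0.08 in young cells. Since 4.29% of all genes were called in old and 1.72% in young cells, a count of 0 in so short a list, here and for the Meis1 partners, says little. In old cells Cbfb, the partner subunit of Runx1, lay highest, at 26.8 in old KO and 19.4 in old WT, and Tcf12, a bHLH partner of Tal1, lowest, at 3.34 and 4.60. Tal1 stood at 11.7 in old KO and 13.2 in old WT, and at 22.7 in young KO and 16.7 in young WT. Lmo2 stood at 15.4 and 18.1 in old KO and WT and at 23.2 and 27.6 in young KO and WT, Gata2 at 9.53 and 10.7 and at 15.3 and 14.4. Lyl1, the most abundant of them, stood at 75.7 and 69.2 and at 58.3 and 58.6, and Runx1 at 18.2 and 14.8 and at 20.3 and 22.1. Of the Meis1 partners, 0 of 11 measured were called in old cells and 0 of 12 in young cells, where 10 of the 12 lay below 0 at a median of -0.23. Hoxa5 was lower at both ages, at 3.47 in old KO and 6.14 in old WT and at 4.45 in young KO and 7.75 in young WT.

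Relatives of the members went different ways in old cells, where the counts of called genes below stand against 4.29% of all genes. Nfil3, a bZIP repressor that competes with Hlf-type factors for sites, stood at 9.58 in old KO and 3.86 in old WT, and at 3.12 in young KO and 4.61 in young WT. Its PAR bZIP relatives Tef, at 2.78 and 2.79, and Dbp, at 1.51 and 1.74, differed little between old KO and old WT. Of 8 measured PRDM relatives, Prdm1 was the one called, a repressor that promotes the plasma cell program. It stood at 1.18 in old KO and 7.85 in old WT, and it is also among the plasma cell markers below. Of 14 measured ETS relatives 2 were called, both higher in old KO: Elf4 at 14.0, against 4.58 in old WT, and Spi1, the factor PU.1 of myeloid cells, at 24.3, against 11.2. Elf4 stood at 16.0 in young KO and 16.2 in young WT, which leaves old WT as its one low library. Ets1 went the other way, at 1.82 in old KO and 4.53 in old WT, a difference of -0.97 that was not called. In young cells Ets1 stood at 4.25 in KO and 1.74 in WT. Of the 14 ETS relatives, 10 lay above 0 and 4 below in old cells. Of the GATA group, Gata1 stood at 8.51 in old KO and 17.3 in old WT, and at 25.0 in young KO and 15.4 in young WT, with a difference of -0.95 in old cells, just under the 2-fold line. Of 4 measured bHLH inhibitors and relatives, Id1 and Id3 were called. Id1 stood at 11.1 in old KO and 3.35 in old WT, and Id3 at 4.10 in old KO and was not listed in old WT. Id2 stood at 11.5 in old KO and 5.62 in old WT, a difference of 0.92 that was not called. Of 17 measured elongation partners of Mllt3, Ell2 and Eaf2 were called. Ell2, an elongation factor that plasma cells use for immunoglobulin RNA, stood at 7.45 in old KO and 23.5 in old WT, and Eaf2 was not listed in old KO and stood at 2.20 in old WT.

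Of the other stem cell regulators, 3 of 24 measured were called in old cells, against 4.29% of all genes, with Nkx2-3 at 2.30 in old KO and 7.19 in old WT, Zfx at 2.19 and 8.51, and Klf4 at 27.2 and 12.7. In young cells 4 of 22 were called, against 1.72% of all genes, with Zbtb20 at 1.84 in young KO and 6.90 in young WT, Egr1 at 4.74 and 10.6, and Zfx at 9.39 and 2.23. Nkx2-3, the other one, had a ratio of young KO to young WT of 0.222. The median was 0.00 in old and 0.07 in young cells. Of 13 measured genes reported as targets of the members, 11 lay below 0 in old cells, at a median of -0.31. In young cells 7 of 13 did, at a median of -0.09. Over all genes 50.3% lay above 0 in old and 50.5% in young cells. Pf4, Itga2b, Gp9 and Vwf, all below 0 in old cells, are also among the megakaryocyte markers below.

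**Figure D4:**
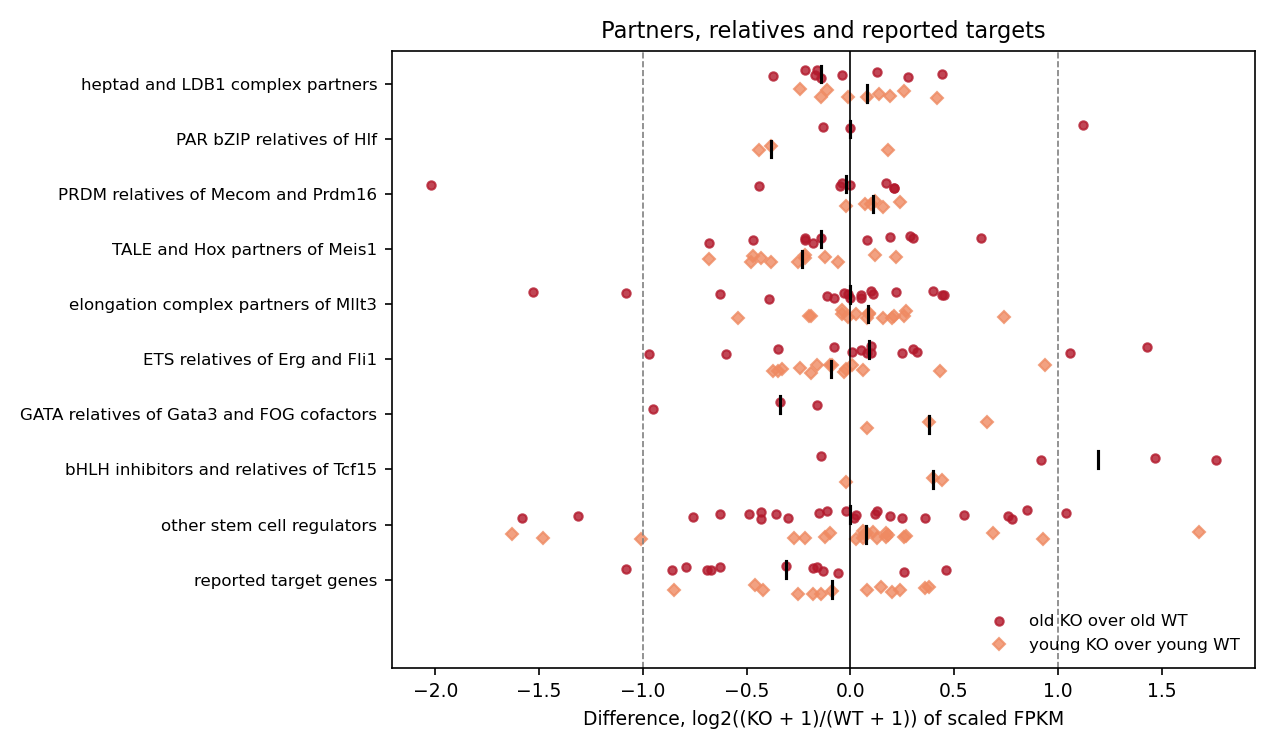
Difference between KO and WT, log2((KO + 1)/(WT + 1)) of scaled FPKM, for each measured gene of 10 lists of partners, relatives and reported targets, in old cells (circles) and young cells (diamonds); black bars are list medians, dashed lines mark 2-fold, and a gene unlisted in 1 library is drawn against the lowest listed value. The heptad and Meis1 partners stay within the dashed lines at both ages, and Prdm1 lies at -2.02 in old cells.

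Markers of other cells moved with the same comparisons, and their part in the members' differences was not tested. Sums below count an unlisted gene at the lowest listed value. Over all genes 50.3% lay above 0 in old and 50.5% in young cells, and 4.29% were called in old cells. Granulocyte and monocyte markers, 14 of 14 in the files, summed to 2496 in old KO, 1334 in old WT, 889 in young KO and 987 in young WT, and all 14 were higher in old KO than in old WT. Plasma cell markers, 9 of 9, summed to 206, 2180, 60.2 and 45.7 in the same order. All 9 were called lower in old KO, against 2.66% of all genes. Erythroid markers, 13 of 13, summed to 252, 354, 803 and 363, with all 13 above 0 in young KO. They were split in old KO, where 5 of 13 lay above 0. There Hbb-bs, Hbb-bt and Hba-a2 were called higher and Epor and Car1 lower. Megakaryocyte markers, 9 of 10, summed to 33.2, 50.1, 63.7 and 62.8, with 5 of 6 measured below 0 in old KO. Mast cell and basophil markers, 9 of 9, summed to 63.6, 110, 454 and 428. Prss34 alone stood at 11.0, 50.3, 274 and 279 in the same order, and the median difference of the list was -0.17 in old cells. Beside Gata3, T cell and innate lymphoid markers, 14 of 18, summed to 41.7, 29.8, 26.3 and 24.3. Cd3e was listed at 1.77 in old KO and 0.755 in old WT and in neither young library, and Bcl11b, Cd4, Cd8a and Lef1 in no library. Trac, a T cell receptor constant gene and the one of this list called, stood at 2.82 in old KO and was not listed elsewhere. Il1rl1, a receptor of innate lymphoid and mast cells, stood at 1.53 in old KO and 3.86 in old WT, and at 7.59 in young KO and 3.68 in young WT. Of the 10 markers of this list measured in old cells 8 lay above 0, against 50.3% of all genes, at a median of 0.42. Of the 6 markers measured in young cells 3 lay above 0 and 3 below. The lower ones included Lck with a ratio of 0.521 and Thy1 of 0.740, and the higher ones Trbc2 with 2.30 and Il7r with 1.19. Endothelial markers, 8 of 10, summed to 26.5 in old KO, 30.0 in old WT, 31.3 in young KO and 36.3 in young WT, with a median difference of -0.57 in old cells and Cdh5 listed only in old WT, at 0.615.

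Among surface markers of stem cells, Procr stood at 1.40 in old KO and 1.48 in old WT, Slamf1 at 0.896 and 1.60, Fgd5 at 0.931 and 1.01 and Esam at 3.35 and 4.18. Of 15 such markers measured, 10 lay below 0 in old cells, at a median of -0.06, and 11 in young cells, at a median of -0.13. Over all genes 50.3% lay above 0 in old and 50.5% in young cells. Of the 4 named first, Slamf1 had the largest old difference, -0.46. Others of the 15 differed more, with Ly6a at -0.92 and Ctnnal1 at -0.56. In old cells 1 of the 15 was called, lower in old KO, against 4.29% of all genes. The 5 above 0 in old cells included Cd48 and Eng, each at 0.46.

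Hlf and Mllt3 had the most similar profiles of any members over the 4 libraries, with a root mean square distance of 0.137 in log2 level centred on each gene, followed by Mecom and Mllt3 at 0.149. Among 6348 named genes listed in all libraries at a mean of 5 or more, the nearest to Hlf were Cela1 at 0.0936, Grb10 at 0.114 and Taf5l at 0.130, where the median gene stood at 0.531. Cela1 stood at 3.28 in old KO, 7.86 in old WT, 8.70 in young KO and 6.50 in young WT, and Taf5l at 12.7, 25.7, 28.4 and 24.9. With 4 points a profile, such nearness is a description only.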

How the data were processed

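The authors deposited 1 table per RNA library with an FPKM for each gene, per the file headers, and the tables list no gene under 0.5. Per the submitters' processing notes, the build was mm10 (GRCm38) and the tools included HISAT2 2.0.4 and StringTie 1.3.0, in no stated order. No source used here states whether counting used strand. The 2 bisulfite samples were not analysed here. Of 14468 gene identifiers 14382 were found in a name table, and 18 symbols that had become dates were restored. Values were summed by symbol and multiplied by median-of-ratios factors over 10935 genes at 1 or more in all libraries (1.02 for old KO, 1.02 for old WT, 1.02 for young KO and 0.941 for young WT). Unlisted genes were set to 0.5. A gene counted as measured where the higher of the compared libraries reached 1, and as called at a log2(value + 1) difference of 1 or more. Counted units came from the spacing of FPKM times locus length in genes under 1500 bp, of which 62.3% to 71.5% lay within 0.02 steps of a whole multiple. The step was about 2 times as wide in the young libraries, and whether depth differed was not settled. Intervals are Poisson, and for ratios on the log scale.

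The members, the 18 other gene lists and the tests were chosen with earlier results of these data known. Of 223 list entries 201 were in the files. Genes were named as members, as called genes of a list (at most 6 per list and comparison) or as the 3 nearest profiles to a called member. The naming rule also covered shared-enhancer factors with their complex partners, and GATA, PAR bZIP and PRDM relatives. Hoxa5, Id2, Il1rl1, Cd3e, Lck, Thy1, the stem cell surface genes and the predicted genes were named after their values were seen. So were Ets1, Trbc2, Il7r, Pf4, Itga2b, Gp9 and Vwf. An item that the naming rule covers is not reported here. Simulated libraries with 200 changed genes were used to test the calculations. Python 3.11.15, numpy 2.4.6, pandas 2.3.3 and scipy 1.17.1 were used.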

Additional observations from a re-analysis of the deposited data

Results flagged for a closer look

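Hlf stood out among the members because its knockout difference had opposite signs at the 2 ages, beyond counting error at each with the main scaling. The young difference of 0.32 cleared its half-width of 0.24 only narrowly. Without scaling it was 0.21, less than that half-width, and the median of all genes was then -0.10. The old difference of -1.13 minus the young difference of 0.32 came to -1.45 on the log2 scale, with a counting half-width of 0.31. The levels were 6.21 in old KO and 14.7 in old WT, and 14.1 in young KO and 11.1 in young WT. Among all measured genes the old Hlf difference lay at percentile 2.24 and the young one at 87.8. Opposite signs were not particular to Hlf. Zfx stood at -1.58 in old and 1.68 in young cells, and Gata1 at -0.95 and 0.66. The share of all genes with opposite signs is not given here. The difference between ages was not tested, since each group had 1 library.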

How the results depend on the processing

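The members' levels, differences, call counts and knockout medians were recomputed with no scaling, upper-quartile scaling, scaling over named genes and unlisted genes at 0. Differences, counts and medians were also recomputed with pseudocounts of 0.1 and 5, and counts and medians with a floor of 5 or none. The gene lists, the predicted genes inside loci and the profile distances were not recomputed. Of 52 recomputed counts and medians 49 stayed the same by the limits used, and 3 moved. The young median, 0.29, was 0.01 with a floor of 5, within the limit used. With a pseudocount of 5 the members called fell to 0 in old KO against old WT and to 0 in old KO against young KO, because Hlf then stood at -0.82 and -0.77. With a pseudocount of 0.1 the young count became 1, Gata3. Of 216 recomputed differences of single members 9 moved by more than counting error and 3 changed sign. Those 3 were in old WT against young WT, where Fli1 and Mecom lay near 0, and of the 108 recomputed knockout differences 0 changed sign. Without scaling the median of all genes in young cells was -0.10. No paired analysis was possible because each group had 1 library. Levels near the listing limit are the least certain: at 0.5 FPKM a transcript of 2 kb corresponds to 9.04 to 18.1 counted units.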
